A study of Homo sapiens with 10 samples.

Results

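The effect of silencing H2A.Z.2 together with H2A.Z.1, beyond that of silencing H2A.Z.1, was read from U2OS cells, a human osteosarcoma line. The cells were transfected with a combination of siRNAs against both H2A.Z isoforms or with the siRNA against H2A.Z.1 only. These are 4 of the 10 libraries of the series, 2 per transfection, chosen by their labels, and no control library enters the comparison. Total RNA was taken after 3 days, depleted of ribosomal RNA and sequenced with the strand kept. All 4 libraries carry the H2A.Z.1 siRNA, and the groups, siH2A.Z.1 and siH2A.Z.1+siH2A.Z.2, are distinguished by the added H2A.Z.2 siRNA. The cells are not a knockout: each isoform was silenced by a single siRNA, and the dose of each siRNA in the combination is not given in the sources used here. The remaining 6 libraries (siH2A.Z.2 alone, siCtrl 3 and siCtrl 4, 2 each) appear at the end, where the same siRNA was followed in cells that keep H2A.Z.1. The labels call the libraries of a group replicates, and the study describes them as samples transfected in parallel. The p-values measure the spread between these parallel samples, which may not include the spread between separate experiments.

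H2A.Z is a variant of histone H2A that the SRCAP and EP400 remodelling complexes place in nucleosomes, above all around transcription start sites, and that the chaperone ANP32E takes out. Vertebrates make it from separate genes, H2AFZ for H2A.Z.1 and H2AFV for H2A.Z.2 (H2AZ1 and H2AZ2 in current nomenclature), whose proteins differ at only a few residues. The variant is known both for activating and for repressing roles, among them at genes of the cell cycle and at p53 target genes.

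The siRNAs define the comparison, and their guide strands are shown 5′ to 3′ with the seed, guide bases 2 to 8, in capitals.
H2A.Z.1 siRNA guide: cUCAAUCAaaacccacuac
H2A.Z.2 siRNA guide: uCAACACAcaacugucacc
Their full target sites were each found in the transcripts of 1 gene. The sites are given on the transcript strand, with the bases that pair with the seed in capitals.
H2A.Z.1 site in H2AFZ: gtagtgggtttTGATTGAg
H2A.Z.2 site in H2AFV: ggtgacagttgTGTGTTGa
On hg38 the first lies at chr4:99948214-99948232 and the second at chr7:44834295-44834313, both on the minus strand, in the 3′UTR and in exon 5 of 5 of the GENCODE v44 transcript. As background, the seed of an siRNA can also lower other mRNAs that carry its match.

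The 4 libraries held 16716990 to 21613828 counts over 23089 genes, and each library had 15243 to 15556 genes above 10 counts. Levels are given as CPM, counts scaled to a common library total, after TMM scaling, which corrects the library totals for composition. Across genes, which are not independent replicates, log CPM of replicates correlated at 0.992 and 0.993, and libraries of different groups at 0.978 to 0.982. Of the markers of this mesenchymal line, SPARC, VIM and FN1 were at 825 CPM or more in every library when scaled by library total, whereas COL1A2 stayed under 1 CPM. The 14 markers of blood, epithelial, endothelial, liver and neural cells summed to 7.63 to 10.7 CPM, with CD3E and KRT19 at 0. The share of counts on the 45S pre-rRNA differed within groups, at 0.0326% and 0.00893% with siH2A.Z.1 and 0.0127% and 0.0613% with siH2A.Z.1+siH2A.Z.2 (replicates 1 and 2). For 28.9% of all tested genes the library with more 45S pre-rRNA was the higher of its group in both groups, and lists with a share of 50% or more are named with it below. For 31.0% it was the lower in both groups. That share was 58.3% in the osteoblast lineage, 55.6% in reference genes and in markers of the line, and 47.7% in DNA repair. It was 46.0% in mitosis, 43.0% in cytosolic ribosomal proteins and 42.5% in the ER stress and ATF4 response. The part of either order in the results was not tested.

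The added siRNA lowered H2AFV and left H2AFZ near its depleted level. H2AFV was at 209 and 190 CPM with siH2A.Z.1 and at 83.3 and 74.4 CPM with siH2A.Z.1+siH2A.Z.2, a 2.53-fold fall (log2 fold change -1.34, standard error 0.09, adjusted p = 0.000246). Both combined libraries lay far below both siH2A.Z.1 libraries. H2AFZ was at 20.5 and 19.8 CPM with siH2A.Z.1 and at 23.3 and 23.2 CPM with siH2A.Z.1+siH2A.Z.2. Both combined libraries were slightly higher, by 0.20 on the log2 scale (standard error 0.11), and this did not pass the test (adjusted p = 0.213). Here and below, adjusted p-values were obtained from the 4 libraries by the quasi-likelihood F test of edgeR, with Benjamini-Hochberg adjustment over all genes tested. An exact permutation test of 2 against 2 libraries cannot give a p-value below 0.333, so each p-value draws on a spread that edgeR shares across genes.

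The added siRNA changed 2742 of 15675 tested genes (17.5%), called genes from here on: their adjusted p-value was under 0.05 and the higher group exceeded the lower by more than 25%. Of these, 1701 rose (10.9%) and 1041 fell (6.64%), with median log2 fold changes of 0.66 and -0.52, while the median over all tested genes was 0.0062. A change of more than 2-fold was reached by 374 of the genes that rose and 121 of those that fell. The libraries of the groups did not overlap for any called gene, as for 62.6% of all tested genes. The counts rested on the combined libraries: 918 genes rose and 656 fell without siH2A.Z.1+siH2A.Z.2 replicate 1, and 861 and 440 without replicate 2. Without siH2A.Z.1 replicate 1 or 2 they were 1656 and 1137, or 1287 and 707. In all 4 of these fits 669 of the genes that rose and 341 of those that fell were called again.

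**Figure D1:**
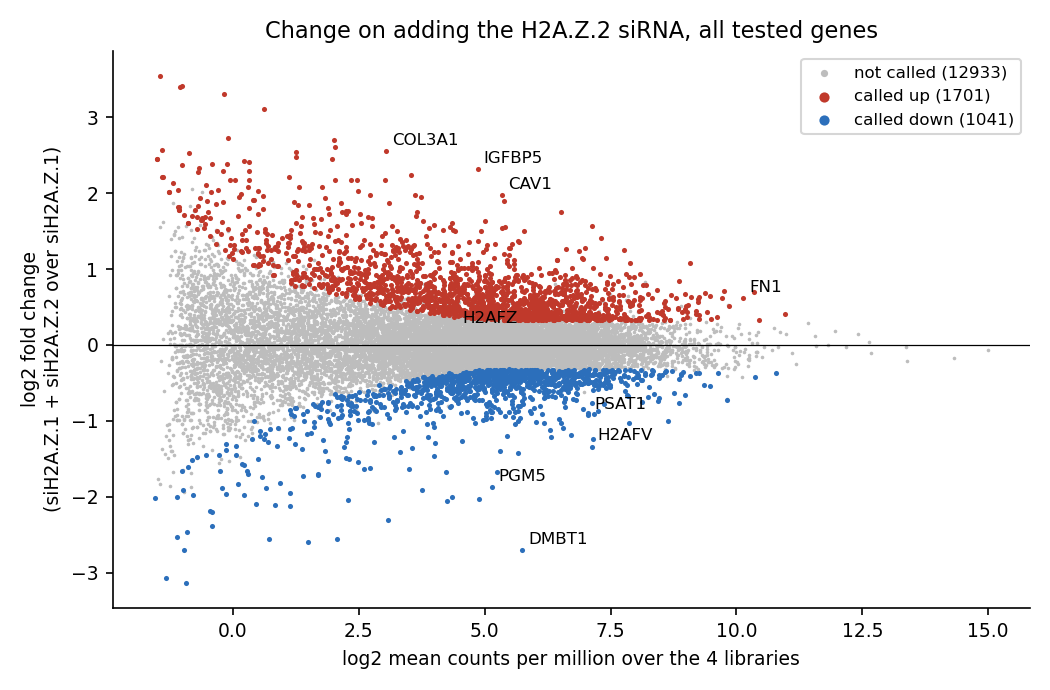
Log2 fold change of siH2A.Z.1+siH2A.Z.2 over siH2A.Z.1 (y axis) against the log2 mean CPM of the 4 libraries (x axis), 1 point per tested gene, with called genes in red (1701 up) and blue (1041 down). The changes spread over the whole range of levels, and H2AFV falls by 1.34 while H2AFZ stays near 0.

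The largest rises were taken as the 12 called genes with the largest fold change among those with a mean of 5 CPM or more. COL3A1, the fibrillar collagen III chain, was at 2.68 and 2.12 CPM with siH2A.Z.1 and at 13.6 and 14.4 CPM with the added siRNA, a 5.86-fold rise (log2 fold change 2.55, standard error 0.18, adjusted p = 0.000271). IGFBP5, which binds insulin-like growth factors, went from 9.32 and 10.1 CPM to 48.4 and 48.2 CPM, 4.97-fold (adjusted p = 0.000107). For both genes the lowest combined library was several times the highest siH2A.Z.1 library. CAV1, the main coat protein of caveolae, stood at 15.5 and 17.5 CPM against 63.4 and 66.6 CPM (3.93-fold, adjusted p = 0.000126). ANO2, a calcium-gated chloride channel, stood at 16.7 and 18.8 against 61.0 and 71.4 CPM (3.72-fold, adjusted p = 0.000216). MAF, a bZIP transcription factor, stood at 5.80 and 5.12 against 20.05 and 21.95 CPM (3.84-fold, adjusted p = 0.000292). In these 3 genes too, replicates differed by far less than the groups. The other 7 were SLITRK6, CCDC129, STMN2 (a tubulin-binding protein of neurons), CTSV (a lysosomal cysteine protease), IGSF10, LGR4 (a receptor for R-spondins) and PIK3IP1 (a negative regulator of PI3-kinase). Their rises lay between 3.92-fold for PIK3IP1 and 4.72-fold for SLITRK6, and their adjusted p-values between 0.000303 for SLITRK6 and 0.00114 for IGSF10. All 12 were called again in each fit that left out a library.

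The largest falls were taken by the same rule. DMBT1, a secreted scavenger receptor protein of mucosal surfaces, fell from 99.2 and 86.9 CPM to 15.0 and 13.5 CPM, 6.50-fold (log2 fold change -2.70, standard error 0.11, adjusted p = 8.58e-05). PGM5, a phosphoglucomutase relative of adherens junctions, fell from 48.7 and 62.1 CPM to 15.9 and 14.4 CPM (3.65-fold, adjusted p = 0.000292). MYCT1 fell from 43.3 and 51.0 CPM to 11.2 and 12.03 CPM (4.07-fold, adjusted p = 0.000216). In these 3 genes every siH2A.Z.1 library was well above both combined libraries. MMP3, the matrix protease stromelysin, fell from 52.5 and 63.4 CPM to 18.1 and 18.4 CPM (3.18-fold, adjusted p = 0.000271). LCP1, an actin-bundling protein of blood cells that many tumour lines express, had siH2A.Z.1 libraries that were less alike, at 23.1 and 38.7 CPM, and lay at 7.73 and 7.10 CPM with the added siRNA (4.17-fold, adjusted p = 0.00134). The other 7 were PLCH1 (a phospholipase C), the noncoding LCAL1, ADGRF5 (an adhesion G protein-coupled receptor), FUT1 (the fucosyltransferase of the H antigen), CHI3L1 (a secreted chitinase-like glycoprotein), IL24 (a cytokine) and MMP17 (a membrane-anchored matrix protease). They fell 3.07-fold for MMP17 to 4.94-fold for PLCH1, with adjusted p-values from 0.000271 for PLCH1 to 0.0128 for MMP17. MMP17 had the widest spread of the 12, at 12.1 and 7.69 CPM against 2.18 and 4.39 CPM, still without overlap. All 12 falls were called in each fit that left out a library.

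**Figure D2:**
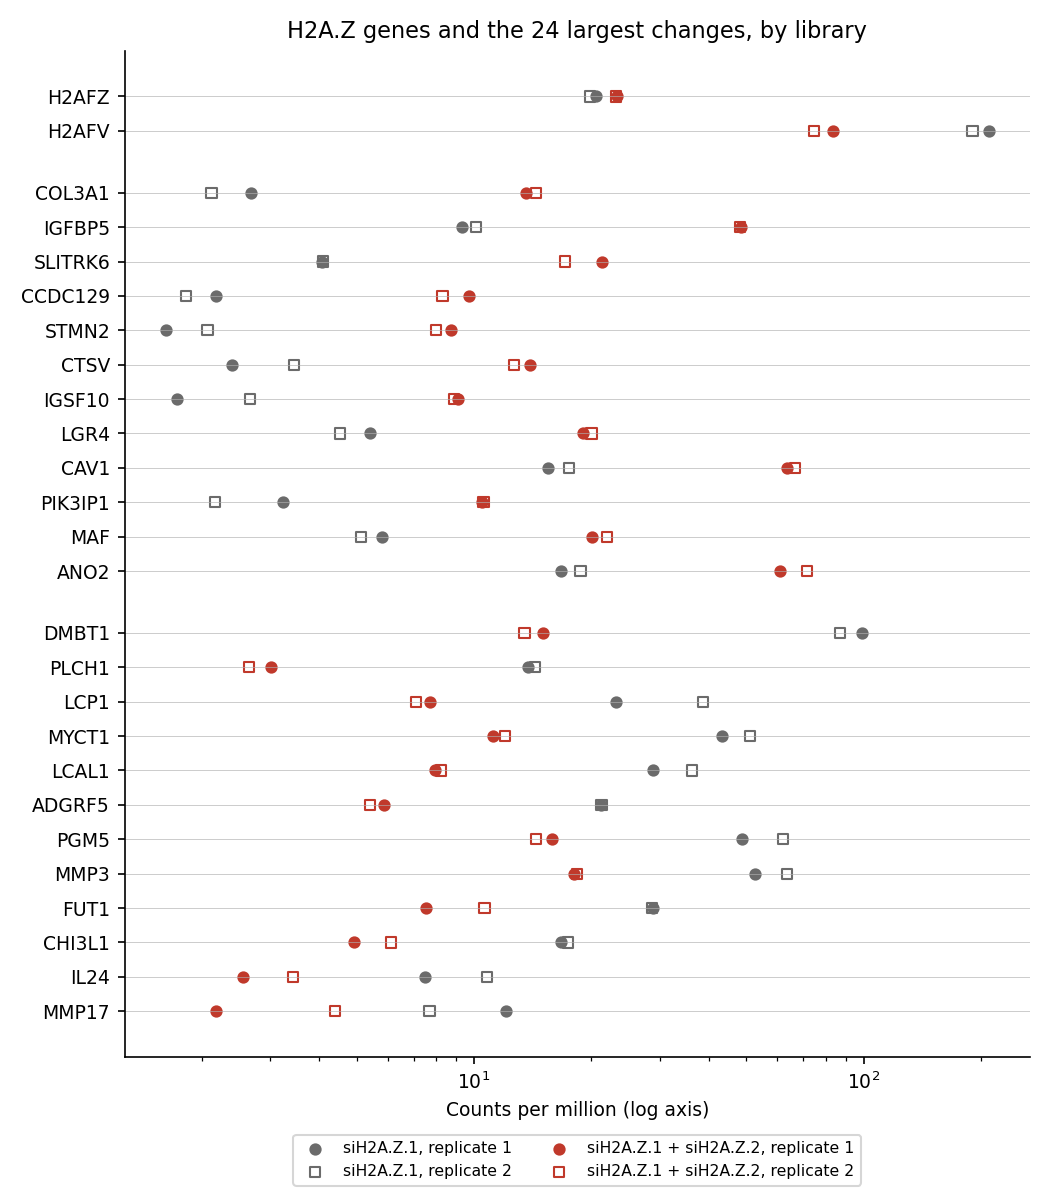
CPM (log axis) of H2AFZ, H2AFV, the 12 largest rises and the 12 largest falls in each of the 4 libraries, grey for siH2A.Z.1 and red for siH2A.Z.1+siH2A.Z.2, filled for replicate 1 and open for replicate 2. The red and grey points separate in every row, least for H2AFZ, whose change did not pass the test.

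Genes of the extracellular matrix rose more often than the 10.9% of all tested genes. Collagens, the structural chains of the matrix, rose in 11 of 27 tested members and fell in 0, with a median log2 fold change of 0.59. COL11A1 went from 42.8 and 41.3 CPM to 149 and 135 CPM (3.38-fold, adjusted p = 0.000107), and COL5A2, of the fibrils that COL3A1 also builds, from 11.2 and 10.9 CPM to 32.9 and 29.5 CPM (2.83-fold, adjusted p = 0.000338). Both genes had tight replicates and wide gaps between groups. COL1A1 was less clear: at 628 and 387 CPM against 723 and 910 CPM it passed narrowly (log2 fold change 0.69, standard error 0.21, adjusted p = 0.0495), and not without siH2A.Z.1 replicate 2 (adjusted p = 0.0993) or siH2A.Z.1+siH2A.Z.2 replicate 2 (0.162). In 16 of the 27 collagens (59.3%, against 28.9% of all tested genes) the library with more 45S pre-rRNA was the higher of its group in both groups. The part of this in the result was not tested. Without siH2A.Z.1 replicate 2, 7 collagens rose and 1 fell, and without any other library 8 to 14 rose.

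Integrins and laminins, the receptors that bind the matrix and the chains of the basement membrane, rose in 10 of 27 members and fell in 1 (median 0.39). ITGB8, an integrin chain that releases latent TGF-beta, went from 188 and 183 CPM to 362 and 347 CPM (1.91-fold, adjusted p = 0.000327). Its partner ITGAV went from 84.9 and 74.9 CPM to 151 and 144 CPM (1.85-fold, adjusted p = 0.00073). The chains of this receptor thus stood apart between groups in all 4 libraries. LAMA4, a laminin chain, was low throughout and rose from 1.12 and 1.38 CPM to 5.09 and 3.85 CPM (adjusted p = 0.0031). Matrix proteases and the plasminogen system changed in both directions, with 16 of 36 members up and 5 down (median 0.29). PLAT, the tissue plasminogen activator, rose from 13.7 and 14.7 CPM to 30.6 and 31.6 CPM (2.18-fold, adjusted p = 0.000786), and ADAMTS2, which trims procollagens, rose from 1.34 and 1.68 CPM to 3.797 and 5.47 CPM (3.02-fold, adjusted p = 0.00658), whereas MMP3 and MMP17 fell. Without siH2A.Z.1+siH2A.Z.2 replicate 1, 9 members of this group rose. Among genes of the mesenchymal transition 6 of 24 rose and 3 fell (median 0.17). FN1, fibronectin, went from 827 and 937 CPM to 1392 and 1321 CPM (1.54-fold, adjusted p = 0.00336) and KRT18, a keratin, from 440 and 435 CPM to 264 and 276 CPM (1.62-fold lower, adjusted p = 0.001). Of 9 tested markers of the line itself 4 rose, which were COL1A1, CDH2, FN1 and THY1, and 0 fell, and of 7 tested markers of other cell types 1 rose, GFAP, and 1 fell, ALB, both at 34 counts or fewer in every library. In the osteoblast lineage 1 of 12 rose, which was COL1A1, and 1 fell (8.33% each, near the 10.9% and 6.64% of all genes). The fall was in TNFRSF11B (osteoprotegerin), from 120 and 125 CPM to 60.5 and 58.9 CPM (2.05-fold, adjusted p = 0.000271).

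Of the TGF-beta and BMP pathway, 18 of 44 tested genes rose and 0 fell (40.9% and 0%, against 10.9% and 6.64% of all genes, median 0.35). The rises took in ligands (TGFB3), proteins that store the ligand in the matrix (LTBP1) and genes known to respond to the pathway (TGFBI). LTBP1 went from 19.9 and 21.8 CPM to 63.1 and 58.1 CPM (2.90-fold, adjusted p = 0.000246), TGFB3 from 5.91 and 5.42 CPM to 12.1 and 11.1 CPM (2.05-fold, adjusted p = 0.00356), and TGFBI from 68.9 and 80.2 CPM to 197 and 165 CPM (2.43-fold, adjusted p = 0.000506). All 3 had groups far apart relative to their replicates. Leaving out siH2A.Z.1+siH2A.Z.2 replicate 1 or 2 left 11 members that rose, with 1 that fell without replicate 2. Of the WNT pathway 11 of 42 rose and 1 fell (26.2% and 2.38%, median 0.19). WNT5B, a ligand, went from 9.37 and 7.10 CPM to 18.5 and 22.97 CPM (2.52-fold, adjusted p = 0.00242), and SFRP1, a secreted inhibitor of WNT ligands, from 4.52 and 4.14 CPM to 10.2 and 9.80 CPM (2.32-fold, adjusted p = 0.00236). A ligand and an inhibitor thus rose side by side, as did the receptor LGR4. Of the YAP and TEAD pathway 9 of 27 rose and 1 fell (33.3% and 3.7%, median 0.20). VGLL3, a TEAD cofactor, went from 58.9 and 58.5 CPM to 104 and 110 CPM (1.82-fold, adjusted p = 0.000558), and AMOTL1, which holds YAP in the cytoplasm, from 113 and 113 CPM to 168 and 166 CPM (1.48-fold, adjusted p = 0.00168). With siH2A.Z.1+siH2A.Z.2 replicate 1 or 2 left out, 5 or 4 genes of this list rose. In 21 of the 42 WNT genes (50.0%) and 14 of the 27 YAP and TEAD genes (51.9%) the level followed the 45S pre-rRNA within both groups, and the part of this in the result was not tested.

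Of 50 tested genes of mitosis 23 rose and 1 fell (46.0% and 2.0%, against 10.9% and 6.64% of all genes, median 0.30). The changes of all 50 lay between -0.59 and 0.60 on the log2 scale. CENPF, of the kinetochore, went from 299 and 312 CPM to 463 and 450.5 CPM (1.49-fold, adjusted p = 0.00192). CCNB2, a mitotic cyclin, went from 60.9 and 61.0 CPM to 87.6 and 84.4 CPM (1.41-fold, adjusted p = 0.00383), and SMC4, a condensin subunit, from 167 and 173 CPM to 241 and 243 CPM (1.43-fold, adjusted p = 0.00261). These groups were separated by several times the gap between replicates. BIRC5, survivin, was the exception and fell from 117 and 102 CPM to 77.4 and 68.4 CPM (log2 fold change -0.59, adjusted p = 0.00568). The count of genes that rose was 7 without siH2A.Z.1+siH2A.Z.2 replicate 1, 14 without its replicate 2, and 21 and 20 without siH2A.Z.1 replicates 1 and 2. Of genes of DNA replication and S phase 2 of 52 rose and 2 fell (median 0.07), with 6 rising without siH2A.Z.1 replicate 1, 0 rising without siH2A.Z.1+siH2A.Z.2 replicate 1, and 0 rising or falling without its replicate 2. RRM2, a subunit of ribonucleotide reductase, went from 161 and 166 CPM to 137 and 122 CPM (1.26-fold lower, adjusted p = 0.0237), which did not pass without siH2A.Z.1 replicate 2 (adjusted p = 0.065) or siH2A.Z.1+siH2A.Z.2 replicate 2 (0.191). In DNA repair 1 of 44 rose and 1 fell (2.27% each, median 0.03). These shares, and the 3.85% each of DNA replication and S phase, were under the 10.9% and 6.64% of all genes. Among G1 cyclins and CDK inhibitors 2 of 16 rose and 0 fell (12.5% and 0%, median 0.14). In this list CDK6, a kinase of the G1 phase, rose from 459 and 429 CPM to 599.9 and 599.6 CPM (1.35-fold, adjusted p = 0.00691). CDKN1A, the p21 inhibitor, was at 338 and 327 against 301 and 338 CPM, with overlap (adjusted p = 0.65).

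Promoters of mitotic genes often hold the cell cycle homology region, to which the DREAM and MuvB complexes bind. Its letters TTTGAA, searched on both strands of the 250 bases before the start, were in 11 of 20 promoters of mitotic genes that rose and in 12 of 22 of those not called (55.0% and 54.5%). CCNB2 and SMC4 serve as examples, with the motif in capitals on the gene's strand (for SMC4 as its reverse complement TTCAAA).
CCNB2, chr15:59105108-59105131, plus strand: gacgcggtaTTTGAAtcctggaac
SMC4, chr3:160399566-160399589, plus strand: gcactttttTTCAAAttagtggat
The promoters are from RefSeq (GRCh38.p14), which gave 42 of the 50 genes. The share of TTTGAA in all 27305 promoters of that table is 13.6%.

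Replication-dependent histones, made in S phase from mRNAs without a poly(A) tail, rose in 8 of 35 tested genes and fell in 0 (median 0.35). These shares were 22.9% and 0%, against 10.9% and 6.64% of all genes. All 35 fitted changes were above 0, the lowest at 0.04. HIST1H2AB went from 52.3 and 44.7 CPM to 69.3 and 84.9 CPM (1.59-fold, adjusted p = 0.00783), and HIST1H2BJ from 101 and 78.5 CPM to 134 and 145 CPM (1.55-fold, adjusted p = 0.00847). Within each group the higher library of both genes was the library with more 45S pre-rRNA, as for 24 of the 35 histone genes (68.6%, against 28.9% of all tested genes). The part of this in the result was not tested. The count of histone genes that rose was 2 without siH2A.Z.1+siH2A.Z.2 replicate 2, 22 without siH2A.Z.1 replicate 1, 6 and 9 without the other libraries, and 25 with offsets for transcript length and GC content. These genes are near copies of each other, and reads shared between copies could be split among them. Of the other histone variants 1 of 9 fell, the linker histone H1F0, from 542 and 546 CPM to 421 and 413 CPM (1.30-fold, adjusted p = 0.00913, and 0.0589 without siH2A.Z.1+siH2A.Z.2 replicate 2), and 6 of the 9 (66.7%) followed the 45S pre-rRNA.

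Of 29 tested p53 targets 10 rose and 0 fell (34.5% and 0%, median 0.21), without CDKN1A among them. In 15 of the 29 (51.7%) the level followed the 45S pre-rRNA within both groups, and the part of this in the result was not tested. PLK2, a stress-induced kinase, went from 71.8 and 77.2 CPM to 133 and 141 CPM (1.84-fold, adjusted p = 0.000558). RRM2B, the p53-induced subunit of ribonucleotide reductase, went from 190 and 181 CPM to 271 and 284 CPM (log2 fold change 0.58, adjusted p = 0.00192), and PERP, a membrane protein, from 13.4 and 12.2 CPM to 20.3 and 21.1 CPM (1.62-fold, adjusted p = 0.00691). The groups of all 3 genes were well apart. The count was 5 without siH2A.Z.1+siH2A.Z.2 replicate 1 and 4 without its replicate 2, each with 1 gene that fell. Of the BCL2 family 2 of 17 rose and 1 fell (11.8% and 5.88%, near the 10.9% and 6.64% of all genes, median 0.13). The fall was in BCL2A1, at 24 counts or fewer in every library. The members called changed when a library was left out.

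Genes of the amino acid and integrated stress response fell more often than the rest. In this response, phosphorylated eIF2 favours translation of ATF4, which then induces genes of amino acid synthesis and transport. Of 40 genes of ER stress and the ATF4 response 17 fell and 3 rose (median -0.24), where 6.64% of all genes fell. PSAT1, of serine synthesis, went from 177 and 172 CPM to 95.8 and 87.4 CPM (1.90-fold lower, adjusted p = 0.000434). TRIB3, a pseudokinase induced by ATF4, went from 59.7 and 62.0 CPM to 25.5 and 27.8 CPM (2.29-fold lower, adjusted p = 0.000332). ALDH1L2, of mitochondrial folate metabolism, went from 64.1 and 74.1 CPM to 38.1 and 33.0 CPM (1.94-fold lower, adjusted p = 0.00134). STC2, a secreted glycoprotein, was less abundant, at 5.80 and 7.64 against 2.64 and 2.95 CPM (2.42-fold lower, adjusted p = 0.00595). In each of these genes both siH2A.Z.1 libraries were above both combined libraries. HERPUD1, of ER-associated degradation, fell 1.80-fold (adjusted p = 0.00107). The count of genes that fell stayed at 14 to 17 with any library left out. The 3 members that rose, named here after their values were seen, act in the folding and disposal of ER proteins: HSP90B1 (log2 fold change 0.50, adjusted p = 0.00316), PDIA4 (0.65, 0.00208) and SEL1L (0.34, 0.0135).

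The composite element bound by ATF4 with C/EBP proteins, TGATGNAA on either strand, was found in the 250 bases before the start of 3 of 14 genes of this list that fell and 0 of 22 others of it, against 3.19% of all promoters in the RefSeq table. The 3 genes, singled out after their values were seen, are shown with the element in capitals on the gene's strand (TTGCATCA is its reverse complement).
HERPUD1, chr16:56931957-56931982, plus strand: cgcggcgggTTGCATCAgcccgtgcc
CHAC1, chr15:40953253-40953278, plus strand: cccctgccgTTGCATCActcctgcca
ASNS, chr7:97872460-97872485, minus strand: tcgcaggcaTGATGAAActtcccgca
CHAC1, which degrades glutathione, went from 29.7 and 24.6 CPM to 14.5 and 18.3 CPM (log2 fold change -0.73, adjusted p = 0.0131), and ASNS, asparagine synthetase, from 169 and 185 CPM to 107 and 102 CPM (-0.76, 0.000982). A match of letters is no evidence of binding.

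Of 79 genes of cytosolic ribosomal proteins 11 fell and 0 rose (13.9% and 0%, against 6.64% and 10.9% of all genes). Their changes ran from -0.41 to 0.27, with a median of -0.22. RPS25, at 359 and 364 against 293 and 263 CPM, fell 1.30-fold (adjusted p = 0.0146, and 0.112 without siH2A.Z.1+siH2A.Z.2 replicate 2). The count was 0 without siH2A.Z.1+siH2A.Z.2 replicate 2, 25 without its replicate 1, 6 without siH2A.Z.1 replicate 2, and 1 with offsets for transcript length and GC content. Reads of ribosomal protein genes may also come from their many processed pseudogenes. In oxidative phosphorylation 3 of 70 genes rose and 5 fell (median -0.09), and without siH2A.Z.1+siH2A.Z.2 replicate 2, 1 fell. ATP5B, the beta chain of ATP synthase, rose from 71.2 and 77.7 CPM to 112 and 111 CPM (log2 fold change 0.59, adjusted p = 0.00231), whereas ATP5F1, of its stalk, fell from 253 and 268 CPM to 196 and 171 CPM (1.42-fold, adjusted p = 0.0066). These subunits of the same enzyme thus moved in opposite directions. In the list as a whole 4.29% rose and 7.14% fell, against 10.9% and 6.64% of all genes, and 62 of the 70 were not called. Of 18 reference genes 1 fell, TBP, and 0 rose (5.56% and 0%, median 0.06). The fall was not called by DESeq2 or with the replicate block. GAPDH was at 5067 and 5364 against 5833 and 5649 CPM (log2 fold change 0.14, adjusted p = 0.313) and ACTB at 3747 and 3459 against 3571 and 3600 CPM (-0.01, adjusted p = 0.965).

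Of 24 NF-kB and cytokine genes 2 rose and 2 fell (8.33% each, near the 10.9% and 6.64% of all genes, median -0.04), and 4 fell without siH2A.Z.1 replicate 1. CXCL8, interleukin 8, fell from 21.6 and 24.3 CPM to 9.91 and 8.90 CPM (2.44-fold, adjusted p = 0.000996), and IL1A from 3.79 and 3.35 CPM to 0.69 and 0.96 CPM (4.35-fold, adjusted p = 0.00231). The interleukin 7 receptor IL7R rose from 63.1 and 73.5 CPM to 108 and 108 CPM (1.59-fold, adjusted p = 0.00251), and TNFAIP6, a hyaluronan-binding protein, from 0.39 and 0.49 CPM to 1.81 and 2.29 CPM (4.51-fold, adjusted p = 0.00514). CXCL8 and IL1A thus fell while IL7R and TNFAIP6 rose, and the other 20 of the 24 genes were not called. Of 30 immediate early and MAPK feedback genes 6 rose and 6 fell (median 0.05). EGR1 went from 235 and 279 CPM to 437 and 414 CPM (1.65-fold, adjusted p = 0.00231) and JUN from 64.0 and 50.6 CPM to 88.9 and 105 CPM (1.70-fold, adjusted p = 0.00595). The feedback inhibitors SPRY4 (1.64-fold, adjusted p = 0.00463) and DUSP2 (1.83-fold, adjusted p = 0.0101) fell. The transcription factors EGR1 and JUN thus lay on the other side of 0 from the inhibitors SPRY4 and DUSP2. These are only some of the called members. FOS, whose replicates were less alike, rose from 76.1 and 50.2 CPM to 140 and 93.9 CPM (1.86-fold, adjusted p = 0.025). It was not called by DESeq2. The count of immediate early genes that rose was 3 without siH2A.Z.1 replicate 2. Of 43 interferon response genes 8 rose and 1 fell (median 0.20), with 0 to 6 rising when a library was left out: 0 without siH2A.Z.1+siH2A.Z.2 replicate 2, 3 without its replicate 1, 5 without siH2A.Z.1 replicate 2 and 6 without siH2A.Z.1 replicate 1.

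In the metabolic lists the shares that changed may be read against the 10.9% and 6.64% of all genes. Of 37 hypoxia and glycolysis genes 9 rose and 3 fell (24.3% and 8.11%, median 0.13). LOX, which crosslinks collagen, went from 32.9 and 31.4 CPM to 55.6 and 54.5 CPM (1.71-fold, adjusted p = 0.00129), and P4HA2, which hydroxylates collagen prolines, from 58.3 and 60.2 CPM to 99.96 and 92.7 CPM (1.63-fold, adjusted p = 0.00128). The glucose transporter SLC2A3 fell from 256 and 309 CPM to 176 and 178 CPM (log2 fold change -0.67, adjusted p = 0.00316). Those that rose in this list thus included enzymes of collagen maturation, and without siH2A.Z.1+siH2A.Z.2 replicate 2 the rises numbered 5. Of 33 genes of cholesterol and fatty acid synthesis 5 rose and 2 fell (15.2% and 6.06%, median 0.02), near the shares of all genes, among them the desaturase FADS1, from 69.6 and 76.6 CPM to 134 and 132 CPM (1.82-fold, adjusted p = 0.000609), and the elongase ELOVL6, which fell (log2 fold change -0.68, adjusted p = 0.00377). Of 48 lysosome and autophagy genes 7 rose and 4 fell (14.6% and 8.33%, median 0.03), again near the shares of all genes. LIPA, the lysosomal acid lipase, fell from 21.9 and 21.6 CPM to 10.4 and 10.2 CPM (2.12-fold, adjusted p = 0.00119). Without siH2A.Z.1+siH2A.Z.2 replicate 2, 3 genes of the lysosome list and 3 of cholesterol and fatty acid synthesis rose, and without siH2A.Z.1 replicate 1, 5 of the latter fell.

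Of 21 tested genes of H2A.Z deposition and removal 1 rose and 1 fell (4.76% each, against 10.9% and 6.64% of all genes, median -0.13), too few to set the list apart. ZNHIT1, a subunit of the SRCAP complex, fell from 31.7 and 27.1 CPM to 19.0 and 20.3 CPM (log2 fold change -0.58, adjusted p = 0.0131, and 0.0569 without siH2A.Z.1+siH2A.Z.2 replicate 1). ANP32E rose from 77.9 and 70.4 CPM to 98.7 and 87.6 CPM (1.26-fold, adjusted p = 0.0379), a call that was lost without siH2A.Z.1 replicate 2 (adjusted p = 0.127) or siH2A.Z.1+siH2A.Z.2 replicate 1 (0.332) or 2 (0.0616) and in DESeq2 (0.07). It was also lost with RLE or upper-quartile factors, with no filter or another filter on low counts, with offsets for length and GC content and with the replicate block, where the fold or the p-value fell short. Over all settings tried its adjusted p-value ranged from 1.93e-05 to 0.332. SRCAP was at 162 and 181 against 154 and 160 CPM (log2 fold change -0.13, adjusted p = 0.301) and EP400 at 241 and 227 against 225 and 247 CPM (0.01, adjusted p = 0.948). Of 10 H2A.Z interactors none was called by edgeR (median -0.05) or by DESeq2, with 2 at an unadjusted p-value under 0.05. Of 59 enzymes of histone methylation and acetylation 5 rose and 1 fell (median -0.01), among them the acetyltransferase KAT2B, from 14.3 and 13.9 CPM to 22.2 and 22.2 CPM (1.58-fold, adjusted p = 0.00664), and 2 of them rose without siH2A.Z.1+siH2A.Z.2 replicate 2. The shares of these enzymes that rose and fell, 8.47% and 1.69%, were under the 10.9% and 6.64% of all genes. PHF14, an H2A.Z-associated protein, was lower in both combined libraries, at 126 and 122 CPM against 150 and 143 CPM (adjusted p = 0.0473), but its 1.18-fold change is under the limit. The deacetylase SIRT1 was at 60.6 and 58.3 against 55.4 and 55.9 CPM (adjusted p = 0.438).

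Some genes taken from the study's text responded and others did not. ADAMTS1, a matrix protease, went from 18.4 and 21.6 CPM to 33.2 and 28.1 CPM (1.54-fold, adjusted p = 0.0143, and 0.111 without siH2A.Z.1+siH2A.Z.2 replicate 1). ZDHHC20, a palmitoyltransferase, was at 109.5 and 95.4 against 134 and 118 CPM (log2 fold change 0.30, adjusted p = 0.0583, and called without siH2A.Z.1 replicate 1 at 0.0197). COLEC12, a scavenger receptor, was at 2.18 and 1.92 against 1.34 and 1.20 CPM (-0.67, adjusted p = 0.116). AKAP12, a scaffold of protein kinase A, was at 102 and 117 against 112 and 109 CPM, within the spread of the siH2A.Z.1 libraries (0.01, adjusted p = 0.934).

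The genes that rose were longer than the rest. Their median transcript was 4547 bases (1657 of 1701 genes with a length), against 3095 for genes not called and 2953 for those that fell, and the median gene spanned 67.7 kb, against 30.7 and 25.0 kb. Across 5 equal groups by transcript length, from the shortest to the longest, 3.79%, 7.62%, 11.1%, 14.1% and 19.2% of genes rose, while 5.62% to 7.62% fell. The median log2 fold change went from -0.08 in the shortest group to 0.09 in the longest. With offsets for transcript length and GC content in the fit, an alternative added after the data were seen, 1910 genes rose and 1545 fell, 2486 of them among the 2742. Median GC content was 46.1% in genes that rose and 48.1% in those that fell, with 48.4% in genes not called.

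Matches to the seed of the added siRNA were more frequent in genes that fell than in the rest. A match is the 7-mer TGTGTTG, which pairs with guide bases 2 to 8, in the 3′UTR of the GENCODE v44 transcript. It was in 249 of 919 genes that fell (27.1%, 95% Wilson interval 24.3% to 30.1%), in 355 of 1613 that rose (22.0%, 20.1% to 24.1%) and in 2044 of 10869 not called (18.8%, 18.1% to 19.6%). The intervals cover counting error only. Since genes that rose also have longer 3′UTRs (median 2043 bases, against 1334 in genes that fell and 1265 in those not called), the shares were read on each side of the median 3′UTR length. Among 3′UTRs of up to 1352 bases 12.9% of genes that fell and 5.69% of those that rose held a match, with 6.63% of genes not called, and among longer ones 41.7% and 30.7%, with 32.1%. For the seed of the H2A.Z.1 siRNA, present in all 4 libraries, genes that rose had the highest share, with a match in 9.14% of genes that fell (7.44% to 11.2%), 274 of 1613 that rose (15.2% to 18.9%) and 10.7% not called. By 3′UTR length this gave 3.43% of genes that fell, 4.80% that rose and 3.19% not called among the shorter, and 15.0%, 23.5% and 18.9% among the longer. With guide bases 2 to 7 the shares for the added siRNA were 44.8%, 39.9% and 35.0%. Most genes that fell hold no match. Of the 12 largest falls 4 do, as do COL3A1, CTSV and LGR4 of the 12 largest rises. LCAL1, which is noncoding, has no 3′UTR to search. The sites of the 4 falls are shown with the paired bases in capitals.
MYCT1, chr6:152724306-152724325, plus strand: ttatcaagaattTGTGTTGg
ADGRF5, chr6:46852869-46852888, minus strand: actggcccttggTGTGTTGc
IL24, chr1:206903901-206903920, plus strand: gcccagtgagacTGTGTTGt
MMP17, chr12:131851466-131851485, plus strand: ctagtgagggacTGTGTTGa
Each lies in the last exon of its transcript. Whether the siRNA acted through these sites was not tested.

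**Figure D3:**
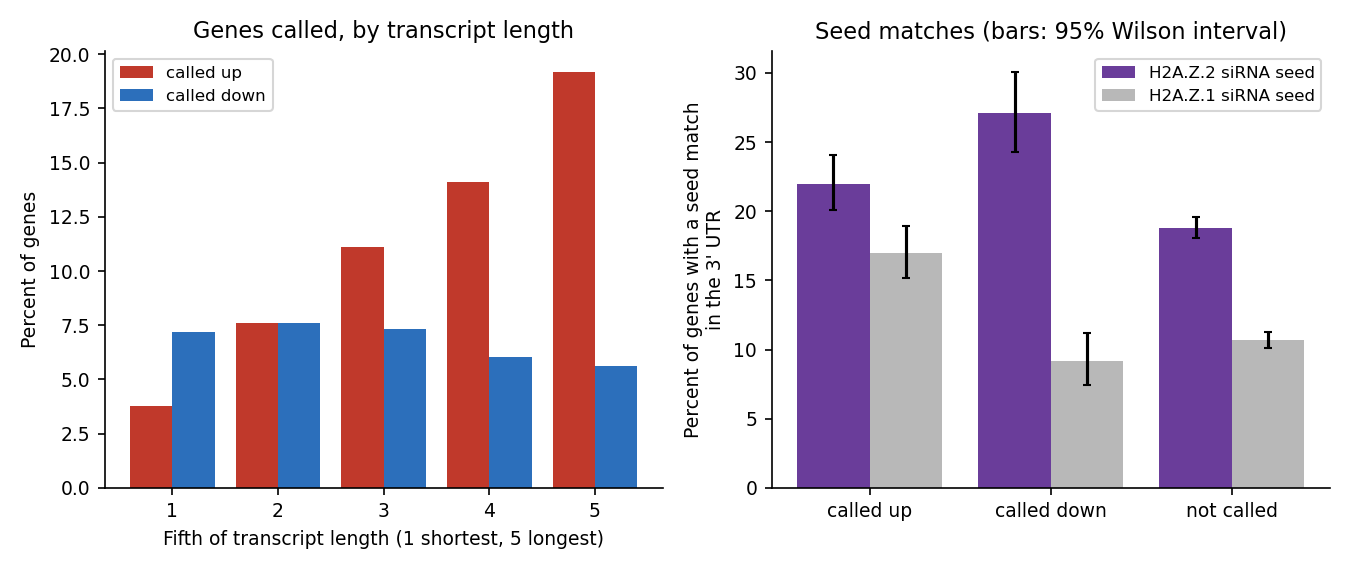
Left, percent of genes called up (red) and down (blue) in 5 equal groups by transcript length; right, percent of genes whose 3′UTR pairs with the seed of either guide, H2A.Z.2 in purple and H2A.Z.1 in grey, with 95% Wilson intervals. The share that rises climbs from 3.79% to 19.2% with length, and the H2A.Z.2 seed is most frequent, at 27.1%, in genes that fell.

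The same siRNA was also used in cells that keep H2A.Z.1, where 2 siH2A.Z.2 libraries face 4 control libraries. That comparison shares no library with the one above, and by edgeR it called 127 of 16188 genes (0.785%), 98 up and 29 down, while 2223 had an unadjusted p-value under 0.05. By DESeq2 673 were called. The control siRNAs differed from each other, for H2AFV at 248 and 239 CPM with siCtrl 3 and 143 and 147 CPM with siCtrl 4, which widens the spread of the control group, and leaving out a library left 0 to 16 genes (0 without either siH2A.Z.2 library). H2AFV was at 63.8 and 65.5 CPM with siH2A.Z.2 alone and changed by -1.59 (standard error 0.28, adjusted p = 0.0754). Every siH2A.Z.2 library was below every control, and the difference from the change in H2A.Z.1-depleted cells did not pass the test after adjustment (0.20, standard error 0.10, adjusted p = 0.231).

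Across the 15439 genes tested in all fits, the change upon the added siRNA and the change upon siH2A.Z.2 alone correlated at r = 0.444, as a description over genes, which are not independent. Of the genes that rose upon the added siRNA, 80.0% had a change above 0 with siH2A.Z.2 alone, with a median of 0.27. Of those that fell, 81.9% had a change below 0, with a median of -0.23. Over all these genes 49.7% were above 0 and the median was -0.001. Both fits called 55 genes up and 20 down, and 2 genes fell upon the added siRNA and rose with siH2A.Z.2 alone. ADAMTS15, a matrix protease, is an example of the first kind: it rose from 1.62 and 1.28 CPM to 4.63 and 4.57 CPM upon the added siRNA (log2 fold change 1.67) and by 1.62 with siH2A.Z.2 alone (adjusted p = 0.0342). LTBP1 rose by 1.54 and 1.47 (adjusted p = 0.0136 for the latter). TNFAIP6, PIK3C2G, NRG1, MOB3B and LINC00707 rose in both, by 1.81 to 2.29 upon the added siRNA and by 2.74 to 3.52 with siH2A.Z.2 alone. Without either siH2A.Z.2 library none of these calls with siH2A.Z.2 alone was made, since 0 genes were called then by edgeR.

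The difference between these changes was tested in 1 fit of all 10 libraries, with the mean of the control siRNAs as the reference. It passed at an adjusted p-value under 0.05 for 1634 of 16486 genes (9.91%), with the added siRNA giving the higher value in 865 (5.25%) and the lower in 769 (4.66%). Of 1691 tested genes that rose upon the added siRNA, 541 had a higher and 36 a lower value than with siH2A.Z.2 alone, and of 1021 that fell, 244 had a lower and 10 a higher value. The same 4 libraries chose these genes and supply part of the difference, so the excess in the direction of the call follows in part from the choice and supports nothing. The test depends on how the controls are taken: treating the 4 control libraries as a single group left 23 genes, and taking siCtrl 4 alone as the reference gave 3455. Among the lists, 15 of 40 genes of the ER stress and ATF4 response were lower and 0 higher. PSAT1 changed by -0.93 upon the added siRNA and by 0.07 with siH2A.Z.2 alone (difference -1.03, standard error 0.11, adjusted p = 0.000269, and 0.247 with the controls as a single group). In the TGF-beta and BMP pathway 7 of 44 were higher and 0 lower, in the interferon response 8 of 47 were higher and 0 lower, and in mitosis 1 of 50 was higher and 1 lower, with medians of 0.30 upon the added siRNA and 0.36 with siH2A.Z.2 alone. In DNA replication and S phase 9 of 52 were lower and in DNA repair 8 of 44, with 0 higher in both, and their medians with siH2A.Z.2 alone were 0.18 and 0.19. With siH2A.Z.2 alone no gene of mitosis, S phase or DNA repair was called. CENPF was at 476 and 485 CPM with siCtrl 3, 261 and 296 CPM with siCtrl 4 and 507 and 540 CPM with siH2A.Z.2. CCNB2 and SMC4 were also lower with siCtrl 4 than with siCtrl 3. The change of these genes with siH2A.Z.2 alone thus depends on the control siRNA.

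**Figure D4:**
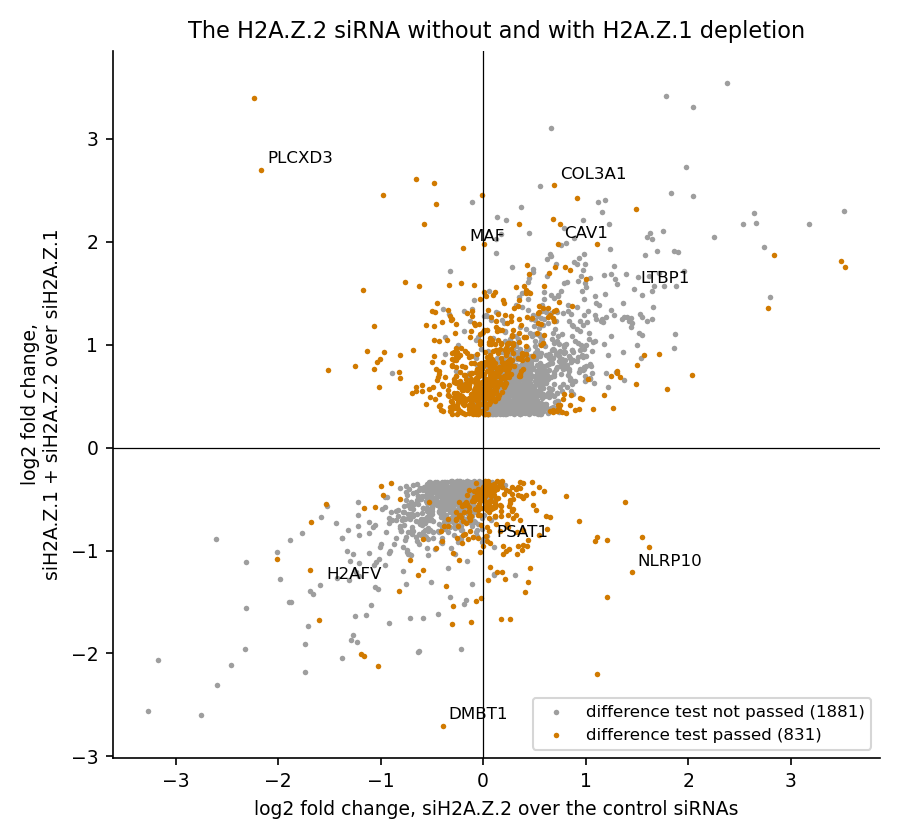
Log2 fold change upon the added H2A.Z.2 siRNA in H2A.Z.1-depleted cells (y axis) against that of siH2A.Z.2 alone over the control siRNAs (x axis), for the 2712 called genes tested in all fits, with orange for genes that passed the test of the difference (831). Most genes lie in the quadrants of equal sign, and DMBT1, MAF and PLCXD3 lie near or across the vertical axis.

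Levels in all groups, scaled over the 10 libraries, show what these differences consist of. DMBT1 was at 3.55 to 5.90 CPM in the 4 control libraries and at 3.40 and 3.64 CPM with siH2A.Z.2 alone, but at 94.9 and 83.7 CPM with siH2A.Z.1 and at 14.5 and 12.9 CPM with both siRNAs. CAV1 was at 158 to 178 CPM in controls, 264 and 293 CPM with siH2A.Z.2, 14.8 and 16.9 CPM with siH2A.Z.1 and 61.2 and 63.6 CPM with both. PLAT was at 50.2 to 78.8 CPM in controls, 65.2 and 62.8 CPM with siH2A.Z.2, 13.1 and 14.2 CPM with siH2A.Z.1 and 29.5 and 30.2 CPM with both. In each of these genes the cells with both siRNAs lay between the siH2A.Z.1 libraries and the controls. These are levels side by side; the siH2A.Z.1 libraries enter both the change upon H2A.Z.1 depletion and the change upon the added siRNA, so the changes cannot be compared as independent. COL3A1 did not lie between: it was at 3.74 to 6.09 CPM in controls, 7.75 and 7.92 CPM with siH2A.Z.2, 2.56 and 2.04 CPM with siH2A.Z.1 and 13.1 and 13.8 CPM with both, the highest level of the 5 groups.

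Among called genes with a mean of 1 CPM or more over the 10 libraries, the largest differences were in CA9, LAMA4, PLCXD3, CLEC19A, PCDH18 and PRR16. For CA9, a carbonic anhydrase known to respond to hypoxia, the value rests on few counts: 1 and 2 with siH2A.Z.1 and 20 and 14 with both siRNAs. It was at 2.98 to 10.6 CPM in controls and 1.53 and 1.06 CPM with siH2A.Z.2. The fitted difference of 5.46 (adjusted p = 0.000421) rests on the few counts of the siH2A.Z.1 libraries. LAMA4 likewise held almost no counts with siH2A.Z.2, at 0 and 0.0379 CPM (fitted difference 4.73, adjusted p = 0.00873). PLCXD3, a phospholipase relative, rose from 1.12 and 1.03 CPM to 7.08 and 6.92 CPM upon the added siRNA (log2 fold change 2.70) and changed by -2.17 with siH2A.Z.2 alone, a difference of 4.57 (standard error 0.22, adjusted p = 2.24e-06, and 0.108 with the controls as a single group). CLEC19A rose by 1.75 upon the added siRNA, less than the fitted 3.53 with siH2A.Z.2 alone over the pooled controls. Its siCtrl 4 libraries were at 0.0445 and 0 CPM. The fitted difference of -4.003, which takes siCtrl 4 as its own group, therefore depends on the prior count. NLRP10, of the NOD-like receptor family, went the opposite way in the 2 settings: it fell from 18.6 and 22.2 CPM to 7.82 and 9.92 CPM upon the added siRNA (adjusted p = 0.00251), and rose by 1.45 with siH2A.Z.2 alone (adjusted p = 0.0359), from 6.46 to 8.99 CPM in controls to 17.1 and 22.0 CPM. For NLRP10 the difference was -2.67 (standard error 0.24, adjusted p = 0.00012, and 0.0184 with the controls as a single group). Either siRNA alone thus left NLRP10 above the controls, and both together left it at 7.56 and 9.47 CPM on the scale of all libraries.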

How the data were processed

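RNA-seq of U2OS cells 3 days after transfection was read from a deposited table of counts per gene, 10 libraries and 23089 genes. The authors aligned reads to hg38 with STAR and counted them per RefSeq gene with HTSeq 0.6.1 using the strand; the deposited counts are not normalized. Other deposited tables hold the authors' own DESeq2 1.22.1 comparisons (fold changes and p-values) and were not used. Samples were grouped by their labels.

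The 4 libraries of the comparison were fitted in edgeR 4.0.16 (R 4.3.3) with TMM factors, filterByExpr and the quasi-likelihood F test, two-sided. Genes were called at an adjusted p-value (Benjamini-Hochberg) under 0.05 and a difference of more than 25% between groups, the study's limits. siH2A.Z.2 alone was fitted against the 4 control libraries as a single group, and the difference between the effects in all 10 libraries as 5 groups, called at an adjusted p-value under 0.05. The scripts were tested on simulated data. Alternatives were DESeq2 1.42.0, other scaling and filters, other thresholds, a replicate block, offsets for length and GC content, other uses of the controls, and each library left out in turn. Depth ran from 16716990 to 21613828 counts per library. The spread of replicates beyond counting error was low (common dispersion of edgeR 0.00767), so counting error is small beside it only for genes of many counts.

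Symbols were matched to GENCODE v44 for 21052 genes, 1026 through older symbols. Members and 31 gene lists were chosen with earlier results of these data known, so no list is independent evidence of a direction, and lists are described by counts and medians without a set test. Genes named in the text are H2AFZ, H2AFV and genes the study names; the 12 largest rises and falls with a mean of 5 CPM or more and no overlap; up to 5 called members of each list with the largest changes at 1 CPM or more; and the leading genes shared with, or different from, siH2A.Z.2 alone. Others are marked as chosen after their values were seen. Some items are not reported here.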

Additional observations from a re-analysis of the deposited data

Results flagged for a closer look

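For 1634 genes the change upon the H2A.Z.2 siRNA differed between cells depleted of H2A.Z.1 and cells that keep it, by edgeR's quasi-likelihood test of the difference with Benjamini-Hochberg adjustment, and 23 of the same genes passed with the controls as a single group. Values below are the change upon the added siRNA minus that with siH2A.Z.2 alone, on the log2 scale, each past an adjusted p-value of 0.05. Among the named genes CAV1 (1.245), DMBT1 (-2.33) and NLRP10 (-2.67) also passed with the controls as a single group, and those that follow did not.

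Among genes of the matrix and its signals the difference was 1.83 for COL3A1, 1.01 for COL11A1, 1.06 for COL5A2, 0.57 for FN1, 1.10 for PLAT, 0.46 for LOX, 0.68 for P4HA2 and 1.00 for TGFBI. It was -0.75 for MMP3, -1.61 for TNFRSF11B and -0.40 for KRT18. LAMA4 gave 4.73, a value that depends on the prior count, since it was at 0 and 0.0379 CPM with siH2A.Z.2. In the WNT and YAP pathways it was 1.14 for WNT5B, 1.249 for SFRP1, 0.83 for LGR4, 0.74 for VGLL3 and 0.54 for AMOTL1.

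In the ATF4 response the difference was -1.03 for PSAT1, -1.03 for ALDH1L2, -0.66 for TRIB3, -0.65 for HERPUD1 and -1.67 for STC2. Cytokines gave -1.45 for IL1A and -1.33 for CXCL8. Metabolic and lysosomal genes gave 0.47 for FADS1, -0.54 for ELOVL6, 0.93 for LIPA and 0.63 for ATP5B. LIPA fell upon the added siRNA, but by less than with siH2A.Z.2 alone, and the same holds for BIRC5 (0.56). EGR1 gave 0.57 and CDK6 0.62.

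Of the other large rises the difference was 0.62 for IGFBP5, 1.66 for STMN2, 1.40 for CTSV, 1.89 for PIK3IP1 and 2.04 for MAF, and of the falls -1.33 for MYCT1, -2.13 for LCAL1 and -2.56 for FUT1. MOB3B (-1.02) and LINC00707 (-1.68) rose in both settings, by less upon the added siRNA. The difference was 5.46 for CA9, a value that rests on few counts, 4.57 for PLCXD3, 3.10 for PCDH18 and 2.71 for PRR16. For CLEC19A it was -4.003, a value that depends on the prior count, since the siCtrl 4 libraries held almost no counts. ZDHHC20 gave -1.11, with control levels of 26.8 and 27.3 CPM for siCtrl 3 and 69.1 and 76.4 CPM for siCtrl 4.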

How the results depend on the processing

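The 16 settings were run on the 165 genes under the naming rule, and not on genes named outside it. None of the 150 called among them changed direction in any setting that gave it a value. DESeq2 gave CA9, PRR16 and NRG1 no adjusted p-value. Of the 165, 66 kept their side of the threshold throughout, and of 2636 values 225 lost the call and 2 gained it. Of the lost calls 88 came from the limit of a fold above 2, which removes every call under that fold by definition. The 66 therefore hold no called gene under 2-fold. The numbers of genes that rose and fell were 1178 and 786 with DESeq2, 374 and 121 at a fold above 2, and 2005 and 1583 without a filter on low counts. With a library left out they ranged from 861 to 1656 and from 440 to 1137. Deviations of equal replicate numbers within the groups correlated at -0.268 over genes, which with so few libraries cannot show whether the libraries were paired. The replicate block gave 1324 and 749, and the crossed replicate block, added after seeing the data, 2433 and 1639. For siH2A.Z.2 alone (127 genes) the counts were 673 with DESeq2, 75 with scaling by library size, 6 with the replicate block and 0 to 16 with a library left out. For the difference (1634 genes) they were 3455 against siCtrl 4 alone, 23 with the controls as a single group, 1709 with the replicate block and 788 to 1514 with a library left out. The causes were not tested.

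Of the genes without a call, AKAP12, EP400, ACTB, VWF and BRD2 changed sign. AKAP12 was at -0.001 with DESeq2, -0.0 with RLE factors, -0.007 with upper-quartile factors, -0.008 without a filter, -0.007 at 1 CPM, -0.062 with offsets, and -0.08 to 0.113 with a library left out. EP400 was at -0.005, -0.004, -0.01, -0.012, -0.011 and -0.089 in the same order, and -0.031 and -0.065 with a library left out. ACTB was at 0.042 with offsets and 0.051 without siH2A.Z.1 replicate 1, VWF ranged from -0.587 to 0.319 and BRD2 from -0.169 to 0.041 with a library left out.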
